A study of Mus musculus with 3 samples.

Results

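The 39 protein-coding Hox genes of the mouse were examined for PU.1 occupancy in i660BM cells, a pro-B cell line. They were taken by symbol (Hoxa, Hoxb, Hoxc or Hoxd followed by a number) from 21900 protein-coding genes of a RefSeq table of GRCm38.p6, the same build as mm10. Cluster A held 11 of them, cluster B 10, and clusters C and D 9 each. Both PU.1 libraries, numbered replicate 2 and replicate 3 after their titles, came from C57BL/6 cells that carry an inducible PU.1 system and were treated with doxycycline at 70 ng/ml for 24 h. They were precipitated with a rabbit polyclonal antibody to PU.1. The remaining sample of the series, input DNA, was not analysed here. No library of uninduced cells or control IgG is among the samples. The labels name no further allele and do not say whether the libraries came from separate cultures. All cells belong to 1 line and both libraries were induced, so the data hold no contrast between conditions, and occupancy is described, not compared between treatments.

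Hox genes encode homeodomain transcription factors that give cells their position along the body axis. They stand in 4 clusters, and within each cluster every member is transcribed in the same direction, with the genes of the front of the body at one end and those of the rear at the other. In blood, members such as Hoxa9, Hoxa10 and Hoxb4 act in stem and progenitor cells, where the TALE-class protein Meis1 is a partner of Hoxa9, and Polycomb proteins keep Hox genes silent in cells that do not use them. PU.1, the product of Spi1, is an ETS-family factor that binds purine-rich sites built around GGAA.

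The libraries differ widely in the length of their lists. Replicate 2 has 74494 peaks and replicate 3 has 6169, and 6139 of the former (8.24%) overlapped a peak of replicate 3. In the other direction, all 6169 replicate 3 peaks (100%) overlapped a peak of replicate 2. Results of each are given on their own.

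Replicate 2 placed peaks in 3 of the 4 clusters and none in cluster A, and replicate 3 placed none in any of them. Each cluster was taken as a domain from 20 kb before its first member to 20 kb after its last. Over the 4 domains, 652 kb in all, there were 17 peaks of replicate 2, of which 9 lay in cluster C, 5 in cluster B and 3 in cluster D. At the density of the whole list, 2.76 peaks per 100 kb, the same length would hold 18.0. The total was thus close to the density of the genome, and its spread over the clusters was uneven. The merged list, 1 set of intervals deposited for the series, held 6 intervals in cluster C, 2 each in clusters B and D, and none in cluster A.

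2 of the 17 peaks covered an annotated start site in the table of promoter sequences, and the bases before those start sites are shown here because they are the promoter sequences of these domains that lay inside a PU.1 peak. Each run is the 250 bases before the start site on the strand of the gene, from RefSeq on GRCm38.p6, with GGAA, or its reverse complement TTCC, in capitals. The first belongs to a start site inside Hoxc4, whose product patterns the neck and upper trunk (chr15:103034145-103034394, plus strand). The second belongs to Hoxd3os1, a non-coding RNA gene that overlaps Hoxd3 on the opposite strand (chr2:74716131-74716380, minus strand). The third, of Hoxa10 (chr6:52240855-52241104, minus strand), is shown for contrast, since it holds a shorter word typical of PU.1 sites and has no peak of replicate 2 within 53.7 kb. The table gives Hoxa10 another start site, 5.9 kb inside its span, and the window before that one holds no such word.
Hoxc4: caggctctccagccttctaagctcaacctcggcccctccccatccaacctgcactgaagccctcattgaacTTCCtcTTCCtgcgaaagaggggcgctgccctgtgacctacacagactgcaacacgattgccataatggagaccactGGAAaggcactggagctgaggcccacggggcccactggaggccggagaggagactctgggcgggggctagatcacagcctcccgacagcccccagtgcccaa
Hoxd3os1: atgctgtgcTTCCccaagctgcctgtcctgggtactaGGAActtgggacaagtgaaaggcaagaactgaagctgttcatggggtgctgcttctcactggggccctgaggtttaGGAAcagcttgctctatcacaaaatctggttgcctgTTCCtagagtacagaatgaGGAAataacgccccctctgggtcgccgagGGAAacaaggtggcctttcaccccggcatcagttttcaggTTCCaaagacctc
Hoxa10: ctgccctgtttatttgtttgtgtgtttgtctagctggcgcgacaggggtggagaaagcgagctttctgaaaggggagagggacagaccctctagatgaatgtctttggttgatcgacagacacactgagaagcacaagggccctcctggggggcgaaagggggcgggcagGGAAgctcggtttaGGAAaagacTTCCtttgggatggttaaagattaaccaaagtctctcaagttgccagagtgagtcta

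The Hoxc4 run holds 3 GGAA cores, 1 of them within GAGGAAGT, a word of 8 letters typical of PU.1 sites. It reads on the strand opposite to the gene, from 181 to 174 bases before the start site. The Hoxd3os1 run holds 7 GGAA cores, 1 of them within GAGGAA. The Hoxa10 run holds 3 GGAA cores, 1 of them within AGGAAGT, also on the strand opposite to the gene, from 59 to 53 bases before the start site. GAGGAAGT contains both of the shorter words, and all were searched on both strands. GAGGAAGT was found in 2.44% of all 32851 promoter windows of this length, AGGAAGT in 7.69% and GAGGAA in 23.3%. Of the 9024 windows whose entry was overlapped by a replicate 2 peak, 4.34% held GAGGAAGT, and of the 23827 others 1.72% did. GGAA itself is common, with a median of 3 matches a window, and 3.82% of windows held 7 or more.

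The promoter table matched 22 of the 39 members, with 24 windows. GAGGAAGT was in 1 of these windows, that of Hoxc4, AGGAAGT in those of Hoxc4 and Hoxa10, and GAGGAA in those of Hoxc4, Hoxa9, Hoxb8 and Hoxd11. Hoxa10 and Hoxd11 each have another window, which held none of these words. The Hoxc4 window was the 1 of the 24 overlapped by a replicate 2 peak (4.17%), where 27.5% of all promoter windows were. The matched windows do not cover the clusters evenly. Most belong to clusters A and D, and Hoxc4 was the only member of cluster C among them. The share is thus not one for all Hox promoters. Hoxa9, Hoxb8 and Hoxd11 therefore held GAGGAA and Hoxa10 held AGGAAGT in windows with no peak. A match is a string of letters and not a measured site.

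**Figure D1:**
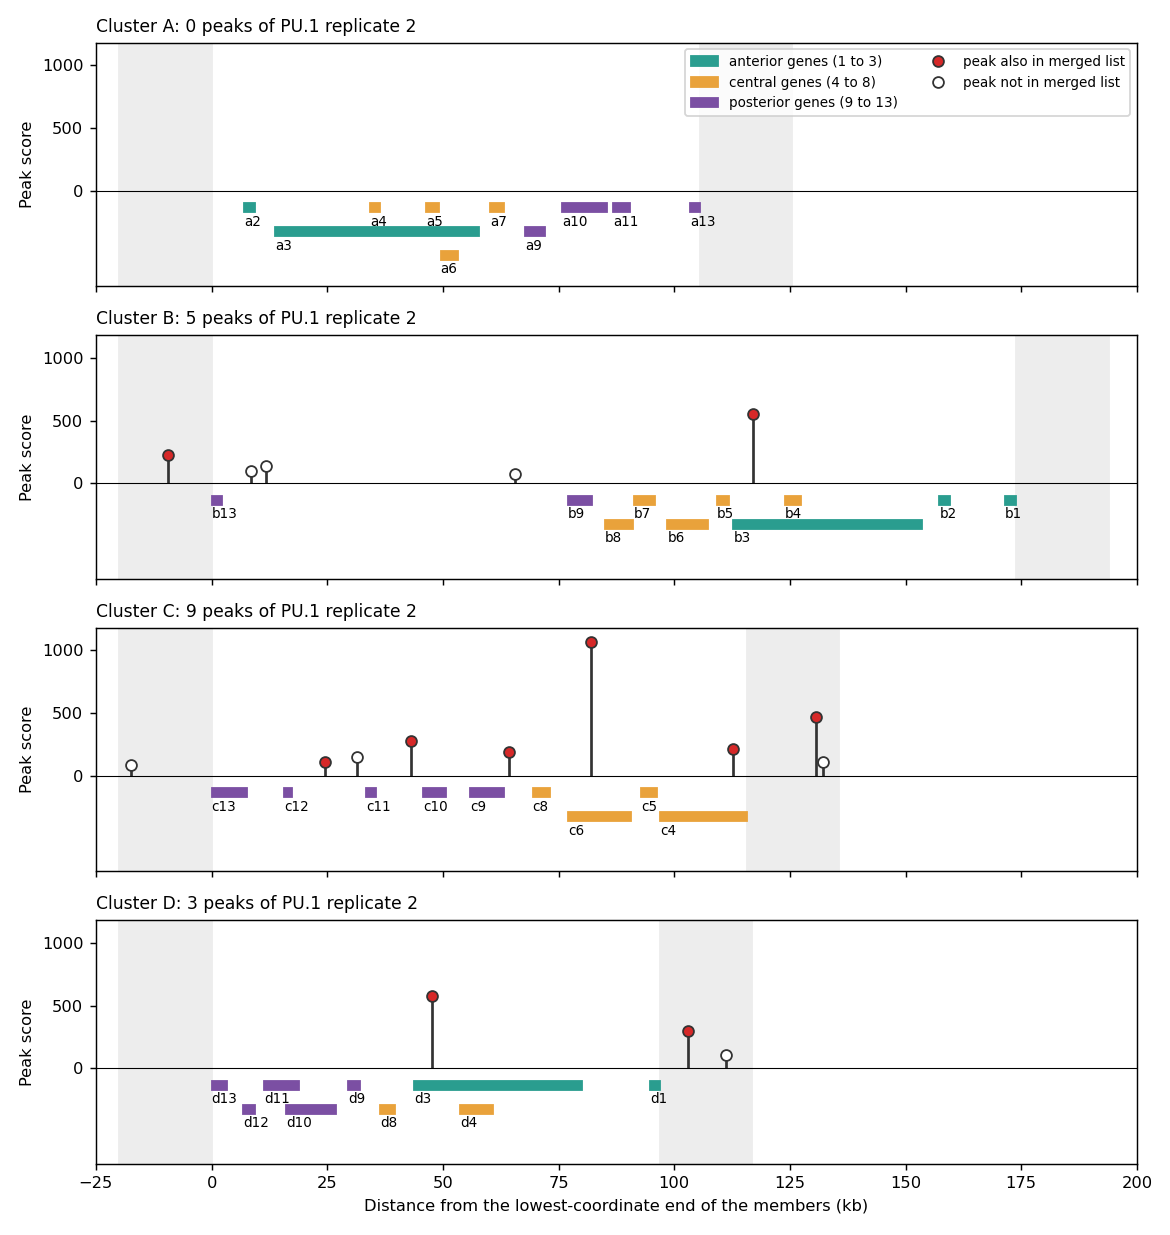
Positions of the replicate 2 peaks in the 4 Hox cluster domains. The x axis is the distance in kb from the lowest-coordinate end of the members, the height of each stem is the deposited peak score, boxes are the members coloured by paralogue class, grey bands are the 20 kb flanks, and filled circles are peaks also in the merged list; 1 gene is not drawn. Cluster A is empty, cluster C carries peaks along its length, and the highest score, 1066, stands inside Hoxc6.

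Cluster A (chr6:52135367-52280880) had 0 peaks of replicate 2 over 145.5 kb, where the density of the list would give 4.01. The exact Poisson 95% interval of a count of 0 reaches 3.69 peaks, or 2.54 per 100 kb, just under the density of the whole list. Such intervals cover counting error only and treat peaks as independent. The cluster lay in 1 stretch without a replicate 2 peak, from 52059068 to 52294822, 236 kb long, which took in all 11 members whole. Of the 74473 stretches between neighbouring replicate 2 peaks, 1085 were as long or longer (1.46%), and the median stretch was 14.7 kb. That share counts each stretch once, whatever its length, and is not the share of the genome in such stretches. Of 18569 windows of the domain's length laid end to end along the chromosomes, 2693 (14.5%) held no replicate 2 peak.

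Of the 14307 stretches over 50 kb, 30 held 11 or more whole protein-coding genes, and that of cluster A was among them. Others of the 30 held olfactory receptor genes (Olfr), vomeronasal receptor genes (Vmn1r), bitter taste receptor genes (Tas2r), genes of keratin-associated proteins (Krtap) or genes of chromosome Y. Another held Rhox genes, a homeobox family of chromosome X, and the families named here are not all of them. The count of genes per stretch was chosen after the values were seen.

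The peaks that bordered this stretch scored below the list's median of 232. On the low-coordinate side the next peak lay 76.3 kb before the domain with a score of 79.3, near the lowest of the list (70.0). On the side of Hoxa13, which acts in limb and genital tract development, it lay 13.9 kb beyond the domain with a score of 169. Distances from a member's span to the nearest edge of a replicate 2 peak ran from 33.9 kb for Hoxa13 to 103.4 kb for Hoxa2, with a median of 81.8 kb. All members of cluster A, the blood progenitor genes Hoxa9 (67.5 kb) and Hoxa10 (54.0 kb) among them, had no peak within 10 kb, in a genome where 72.4% of protein-coding genes had one that near an end. The nearest replicate 3 peak, with a score of 75.5, lay 123 kb before the domain, within 5 kb of an end of Skap2, an adaptor protein gene of blood cells. Evx1, a homeobox gene next to Hoxa13, had no replicate 2 peak within 5 kb of either end.

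Cluster C (chr15:102901131-103056856) had the most peaks, 9 over 155.7 kb, or 5.78 per 100 kb (exact Poisson 95% interval 2.64 to 10.97). The interval does not meet that of cluster A (0 to 2.54), and it overlaps those of cluster B (2.34, 0.759 to 5.45) and cluster D (2.19, 0.452 to 6.40). The density of the whole list also lies inside the intervals of clusters B, C and D. No test between clusters was made, since each is a single region in the same 2 libraries. The intervals cover counting error only and not the spread between regions of the genome. Among all windows of the same length, 14.5% held 0 peaks for domain A, and 15.2% held 9 or more for domain C.

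**Figure D2:**
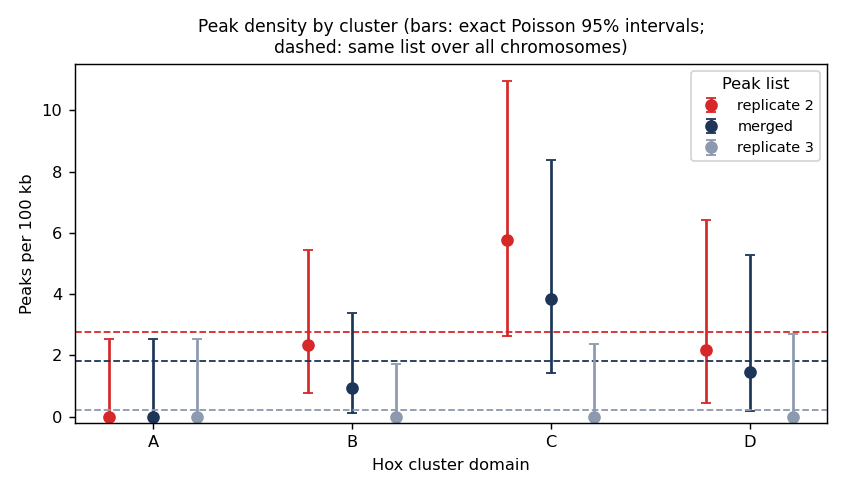
Peaks per 100 kb in each Hox cluster domain (y axis) for the replicate 2, merged and replicate 3 lists. Points are densities, bars are exact Poisson 95% intervals and dashed lines are the density of the same list over all chromosomes. Replicate 2 stands at 0 in cluster A, at 2.34 and 2.19 in clusters B and D and at 5.78 in cluster C, and replicate 3 at 0 throughout.

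Hoxc6, a central member that acts in the thoracic region, carried the strongest peak of all the clusters. It lay inside the gene span, at chr15:103002728-103003664, with a score of 1066, higher than 83.5% of the replicate 2 list. Its rank was 12318 of 74494. The score, given by the peak caller, is taken to be its p-value on a negative log scale, and it was used to rank peaks within 1 list alone. Distances of a peak given to a member are from the peak's centre, and distances to the nearest peak are from its edge. Hoxc4 was given 3 peaks. Beyond its far end lay one 15.0 kb away with a score of 470 (chr15:103051351-103052376) and another 16.5 kb away with 108. Both lay within Gm30528, a non-coding RNA gene that overlaps Hoxc4. The other is the peak over its promoter, at chr15:103033159-103034412, with a score of 210, which lay 0.61 kb from the start site of the promoter table. That start site is 16.3 kb inside the gene's span, which begins at 103018097.

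The posterior end of cluster C had 1 peak for each of its 5 members, all weaker than that of Hoxc6. Hoxc10, a gene of the lumbar region and hindlimb, had one 2.67 kb before its start site with a score of 279 (chr15:102963571-102964689). Hoxc9 had one 1.04 kb past its end with 191, and Hoxc11 one 1.96 kb before its start with 154. The peak given to Hoxc12 lay inside Hotair, a long non-coding RNA gene of this cluster, with a score of 112, and was 7.08 kb from Hoxc12 itself. That of Hoxc13 lay 17.5 kb before the gene with 90.1. Hoxc8 and Hoxc5 had no peak of their own. Hoxc8 came within 5 kb of the Hoxc9 peak, and Hoxc5 was 10.3 kb from the nearest.

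In cluster B (chr11:96174316-96388254) the peaks stood apart from most members. Hoxb3, an anterior member of the hindbrain, had the strongest, inside its span at chr11:96310649-96312156, with a score of 551, higher than 71.4% of the list. It was the widest peak of the 17, at 1508 bp. Hoxb13, a gene of the tail and prostate that is separated from the rest of the cluster by a long gap, was given 3 peaks, 6.15 to 9.47 kb from its span, with scores of 225, 134 and 98.0. Hoxb9 was given 1, 11.5 kb away, with 75.2, the lowest score of the 17. The genes Hoxb4, Hoxb2 and Hoxb1 lay whole within a stretch of 143 kb without a replicate 2 peak. Hoxb4, which supports the renewal of blood stem cells, was 6.11 kb from the Hoxb3 peak, and Hoxb1 was 53.6 kb from any.

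In cluster D (chr2:74648225-74785142) no peak lay at the posterior end. The strongest stood between Hoxd8 and Hoxd4, inside the 36.3 kb span of Hoxd3, and the others lay beyond Hoxd1. Hoxd3, an anterior member of the neck region, had the strongest, at chr2:74715336-74716392, with a score of 574, higher than 72.2% of the list. It is the peak over the Hoxd3os1 promoter and lay 3.87 kb inside Hoxd3 from its start site. Hoxd1 was given 2 peaks beyond its far end, 6.00 and 14.3 kb away, with scores of 296 and 103. The genes from Hoxd13 to Hoxd8, which shape the limbs and trunk, and Evx2 beside them, lay in a stretch of 109 kb without a replicate 2 peak. Their distance to the nearest peak fell from 43.7 kb for Hoxd13 to 7.40 kb for Hoxd8.

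**Figure D3:**
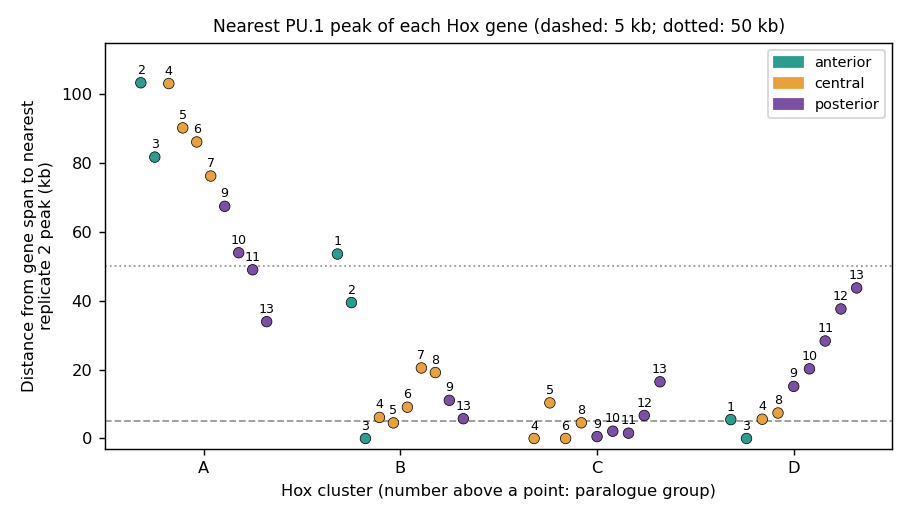
Distance from the span of each Hox gene to the nearest replicate 2 peak (y axis, kb), by cluster (x axis). Points are genes, numbered by paralogue group and coloured by class, with lines at 5 kb and 50 kb, and 1 gene is not drawn. The members of cluster A shown lie between 33.9 and 103.4 kb, and those of cluster C between 0 and 16.5 kb.

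By paralogue class, the 17 peaks fell to 3 of 8 anterior members (groups 1 to 3, 4 peaks), 2 of 15 central members (groups 4 to 8, 4 peaks) and 7 of 16 posterior members (groups 9 to 13, 9 peaks). The posterior members with peaks were all in clusters B and C. The peaks of Hoxb3 and Hoxd3 counted as anterior because these genes have long spans (40.8 and 36.3 kb). By position they stood between central genes, Hoxb5 and Hoxb4 in cluster B, and Hoxd8 and Hoxd4 in cluster D. Counted instead by a peak within 5 kb of an end, which 61.9% of all protein-coding genes had, the classes held 2 of 8 anterior (25.0%), 4 of 15 central (26.7%) and 3 of 16 posterior members (18.8%). The order of the classes thus depended on the way of counting. In group 3, Hoxb3 and Hoxd3 each held a peak inside the span, while Hoxa3 was 81.8 kb from the nearest. In group 10, the 3 genes also differed, with Hoxc10 2.11 kb, Hoxd10 20.2 kb and Hoxa10 54.0 kb from a peak. Within both groups the member of cluster A was the farthest from a peak. That did not hold in group 13, where Hoxd13 was 43.7 kb and Hoxa13 33.9 kb from one.

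A replicate 2 peak came within 5 kb of an end of 9 of the 39 members (23.1%, exact 95% interval 11.1 to 39.3), and 61.9% of all protein-coding genes had one. The 9 members were Hoxb3, Hoxb5, Hoxc4, Hoxc6, Hoxc8, Hoxc9, Hoxc10, Hoxc11 and Hoxd3, and they rest on 7 distinct peaks, since Hoxb3 and Hoxb5 share 1 and Hoxc8 and Hoxc9 another. In all, 25 members were given no peak and had none within 5 kb, namely the 11 of cluster A, Hoxb1, Hoxb2, Hoxb4, Hoxb6, Hoxb7, Hoxb8, Hoxc5, Hoxd4 and the 6 from Hoxd8 to Hoxd13. Neighbouring members share windows, so the interval treats as separate what is in part the same sequence. In the merged list 8 of 39 members had an interval within 5 kb (20.5%), and 53.2% of all genes did. Counting peaks inside the span as well gave the same number, 9 members, where the share of all genes was 70.7%. By cluster the counts were 0 of 11, 2 of 10, 6 of 9 and 1 of 9 from A to D. The exact 95% interval of 0 of 11 reaches 28.5%. Cluster C stood at 66.7% (29.9 to 92.5), an interval that holds the share of all genes, while the intervals of cluster B (2.52 to 55.6) and cluster D (0.281 to 48.2) end below it.

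Within 1 kb of an end of the span, 1 member had a replicate 2 peak, Hoxc9, against 43.8% of all genes. A peak overlapped the span of 4 members, Hoxb3, Hoxc4, Hoxc6 and Hoxd3 (10.3%), and of 61.4% of all protein-coding genes, which are of other lengths. The median distance from a member to the nearest peak was 16.5 kb, and 17.8% of all genes lay farther from one than that. More than 50 kb away were 10 of the 39 members and 7.37% of all genes.

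The peak counts of the domains were also set beside those of windows that touch a like number of genes. Windows of the domains' lengths were laid end to end along each chromosome, and those touching 9 or more protein-coding genes, as the Hox domains do, were taken as gene-rich, a number set after the data were seen. Gene-rich windows held a median of 9, 13, 10 and 9 replicate 2 peaks at the lengths of domains A to D. The share of them with no more peaks than the domain was 4.51% of 244 for cluster A, 18.2% of 455 for B, 46.6% of 277 for C and 15.0% of 220 for D. Among all windows, whatever their genes, the shares were 14.5%, 59.3%, 88.1% and 59.6%. Cluster C was thus near the middle of the gene-rich windows, and clusters A, B and D held fewer peaks than most of them.

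Scores of the 17 peaks ran from 75.2 to 1066 with a median of 191, and the median of the whole replicate 2 list was 232. 6 of the 17 scored above that median and 14 reached 100, as did 60891 of the 74494 peaks of the list. Widths ran from 725 to 1508 bp with a median of 937 bp, near the 995 bp of the list. Of the 17, 10 lay in the merged list, with scores from 112, and the 7 outside it scored 154 or less. Of all replicate 2 peaks, 66.5% lay in the merged list. Of those between the lowest and the highest score of the 17, 62.6% did.

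No member had a peak in replicate 3 or a region shared by both libraries. The median distance from a member to the nearest replicate 3 peak was 320 kb, and the farthest was 807 kb, from Hoxd1. Over all protein-coding genes the median was 90.9 kb. Replicate 3 holds 6169 peaks, so that 1.49 would fall in the 4 domains at its density, and the Poisson interval of a count of 0 reaches 3.69. Among all protein-coding genes, 8.95% had a replicate 3 peak within 5 kb and 9.22% a shared region, and the exact 95% interval of 0 of 39 members, 0 to 9.03%, holds the former share and ends just below the latter. Few replicate 2 peaks of such scores overlapped one of replicate 3. Between the lowest and the highest score of the domain peaks, 82 of 59388 did (0.138%), and within 10% of the Hoxc6 score 79 of 2440 did (3.24%, exact 95% interval 2.57 to 4.02). At the length of this list, 0 peaks in the domains could not be told apart from the density of the list, and every position given here rests on replicate 2.

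Genes that act with the Hox genes, control them or lie beside them were counted in the same way, and the scores given are the best within 5 kb of either end in each library. Of 11 TALE-class genes, which encode partners of Hox proteins on DNA and related repressors, 7 had a replicate 2 peak within 5 kb (63.6%, exact 95% interval 30.8 to 89.1). Pbx4 had the strongest (a score of 3100 in replicate 2, a value many of the top peaks share, and 737 in replicate 3), and shared regions also lay near Tgif2 (1828 and 97.8) and Meis3 (2552 and 72.8). Meis1, the partner of Hoxa9 in blood, had none within 5 kb of an end in either library.

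Of 15 genes of Hox activation, 13 had a replicate 2 peak (86.7%, 59.5 to 98.3). Kmt2a, the MLL methyltransferase that maintains Hox expression, had 3 with a best score of 590. Dot1l, a histone methyltransferase linked to it, had the 1 shared region of the list (3100 and 114). Cdx2, a caudal-type factor that turns on Hox genes in the embryo, had a weak one of 94.6. Of 30 Polycomb genes, 25 had a peak (83.3%, 65.3 to 94.4), with shared regions at Cbx8 (2902 and 99.3) and Rbbp4 (1392 and 81.4). The share of all protein-coding genes, 61.9%, lies inside the interval of the activator list and below that of the Polycomb list.

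Of 16 neighbours of the clusters, 1 of them the non-coding gene Gm53, 10 had a replicate 2 peak within 5 kb of an end (62.5%, 35.4 to 84.8). The Gm53 peak (75.2) is the one given to Hoxb9, and the peaks of Cbx5 and Hnrnpa1 had the same score (91.6). The interval treats genes that share a peak as separate. Skap2 beside cluster A had a shared region (3100 and 75.5), as had Snx11 beyond cluster B (2919 and 190). Other homeobox families, such as Dlx, Pax, Lhx and Irx, had a replicate 2 peak at 27 of 73 genes (37.0%, 26.0 to 49.1), and their interval overlaps that of the Hox genes. A single gene of these families, Lhx2, had a shared region (880 and 85.7). The lists were not tested against each other.

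**Figure D4:**
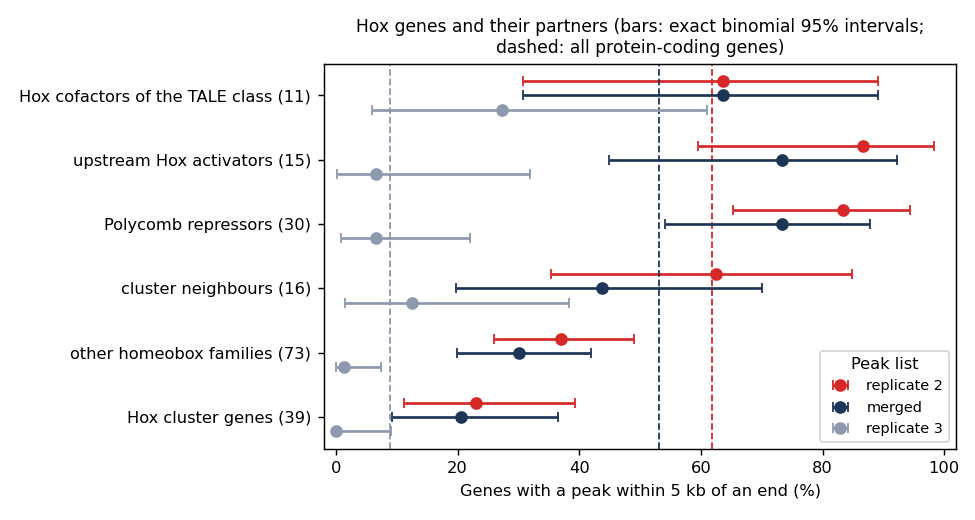
Share of genes in each list with a peak within 5 kb of either end (x axis, %), for the replicate 2, merged and replicate 3 lists, with the number of genes in brackets. Bars are exact binomial 95% intervals and dashed lines are the share of all protein-coding genes in the same peak list. In replicate 2 the Hox cluster genes stand at 23.1% and other homeobox families at 37.0%, below the line at 61.9%, and the Polycomb and activator lists stand above it.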

How the data were processed

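PU.1 ChIP-seq was deposited as peak lists. Per the submitters' processing notes, Trim Galore, Bowtie and MACS 1.4.1 were used with build mm10. The sources used here do not state other versions, the control for peak calling or how the merged list was made. The score in the fifth column of each PU.1 list is the authors' own, deposited without normalization between libraries, and was used within its list only. In the deposited merged list that score is 0 throughout, and the list was used for positions. Lists held 74494, 6169 and 49385 intervals. Read depth was not used here.

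Peaks overlapping a domain by 1 bp were counted, and each was given to the member whose span lay nearest its centre. Shared regions are unions of overlapping peaks of both libraries. Start sites came from the promoter table for 22 members and from the span end on the cluster's strand for 17. Density used the span from the lowest to the highest gene or peak on each chromosome (2703 Mb). Intervals are exact Poisson or Clopper-Pearson at 95%. The code (Python 3.11.15, scipy 1.17.1) was tested on simulated peaks.

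Members and lists were chosen with earlier results of these data known. Named in full are the 3 members per cluster with the highest replicate 2 scores, always Meis1, Cdx2, Kmt2a, Evx1 and Evx2, and up to 4 genes per list with shared regions; other members were described after their values were seen. Values of 2 genes are not reported here, though list totals include them.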

Additional observations from a re-analysis of the deposited data

How the results depend on the processing

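Of 60 values recomputed under other settings, 44 stayed within 1.5 times the reported one, or for a percentile within its counting interval, and 16 did not. Some of the 44 could not move, so the tally is not a measure of stability. Leaving out replicate 3 returned the reported counts of replicate 2. Ranking the peaks at a score of 3100 above all others could not change the percentiles of weaker peaks. Cluster A held 0 peaks in each setting except a flank of 50 kb, which brought in 2. For cluster A and the shared regions, settings that only take peaks away could not change a count of 0. Cluster C held the most peaks in each setting other than the replicate 3 list, where all clusters held 0. Cluster B fell from 5 peaks to 3 with scores of at least 100 and to 2 in the merged list, and cluster D from 3 to 1 with no flank. Over the 4 domains the 17 peaks became 10 in the merged list and 11 with no flank. Leaving out a library, counts ran from 0 (without replicate 2) to the reported number (without replicate 3): 0 to 5 in cluster B, 0 to 9 in C, 0 to 3 in D, 0 to 17 in all, 0 to 9 for members within 5 kb and 0 to 12 for members given a peak. The 0 shared regions became 17 with replicate 2 alone and 10 with the merged list, which follows from using 1 list. Members within 5 kb, 9 as reported, were 1 within 1 kb and 16 within 10 kb, which follows from the window. By distance to the start site, 2 of the 17 peaks moved to another member, from Hoxc12 to Hoxc11 and from Hoxc9 to Hoxc8. No paired analysis was possible because the 2 PU.1 libraries form a single group. The short replicate 3 list limits what can be said of agreement between libraries.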

Other observations

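The microRNA genes of the clusters were not among the members and are described as values only. Mir10a, between Hoxb5 and Hoxb4 in the span of Hoxb3, lay 5.01 kb from the Hoxb3 peak of replicate 2 (551). Mir10b, in the span of Hoxd3, lay 9.68 kb from the Hoxd3 peak (574). Their mature 5p forms share the seed ACCCUGU (bases 2 to 8, in capitals below) and are shown because both genes lie inside a member that also holds the strongest peak of its cluster.
mmu-miR-10a-5p: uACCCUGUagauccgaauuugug
mmu-miR-10b-5p: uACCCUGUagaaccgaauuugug
The miR-196 genes, which share the seed AGGUAGU in their 5p forms, lay 4.91 kb (Mir196a-1), 8.66 kb (Mir196a-2) and 64.7 kb (Mir196b) from a replicate 2 peak, scored 75.2, 279 and 169. Mir615, in cluster C, lay 11.2 kb from the Hoxc6 peak.

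Among the long non-coding RNA genes of the domains, replicate 2 peaks overlapped Gm30134 and Gm53 in cluster B, Hotair and Gm30528 in cluster C, and Hoxd3os1 in cluster D. Those of cluster A, Hottip, Hotairm1 and Mira among them, were not overlapped. The nearest of them to a peak was Hottip, beside Hoxa13, at 27.2 kb.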
